A study of Mus musculus with 6 samples.

Results

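Transcript levels of Wnt ligands, their receptors and their secreted inhibitors were compared between visual cortex of *Chrdl1* knockout (KO) and wild-type (WT) mice. The genes were taken by symbol from a table of 24453 gene rows, and 42 rows matched: 19 Wnt ligands, 10 Frizzled receptors, the co-receptors *Lrp5* and *Lrp6*, the receptor tyrosine kinases *Ror1* and *Ror2*, 4 Dickkopf genes (*Dkk1* to *Dkk4*), and 5 genes of the secreted Frizzled-related group (*Sfrp1*, *Sfrp2*, *Sfrp4*, *Sfrp5* and *Frzb*). Messenger RNA was sequenced from male C57BL/6J mice at postnatal day 14, with 3 libraries from *Chrdl1* KO and 3 from WT. The mice of both genotypes were fixed by paraformaldehyde perfusion ahead of dissection, and the labels give no other treatment and do not describe the knockout allele. Each library title holds a code shared by 1 KO and 1 WT library (1011, 1012 and 1013), so the libraries are called WT1011, KO1011 and so on. Whether each library came from its own animal is not stated, and p-values therefore rest on the spread from library to library.

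Wnts are lipid-modified glycoproteins that bind Frizzled receptors. With the co-receptors Lrp5 or Lrp6 they stabilise beta-catenin, which then acts on target genes with TCF/LEF factors, and with Ror or other receptors they signal without beta-catenin. Secreted Frizzled-related proteins bind Wnts outside the cell, while Dkk1 and its close relatives block Lrp5 and Lrp6. In the brain, Wnts are known for patterning the cortex, growing its vessels and assembling synapses. *Chrdl1* itself encodes a secreted antagonist of bone morphogenetic proteins, another family of ligands.

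*Chrdl1* was 3.44 ± 0.299 FPKM (a read count scaled for exon length and library depth) in the WT libraries and 0.161 ± 0.0364 FPKM in the KO libraries (SD, n = 3 each). Its level was low in each KO library and high in each WT library, in accord with the labels. Depth, recovered from the steps in the FPKM values, was 27.5 to 38.2 megareads in WT and 22.7 to 31.9 megareads in KO. Libraries with the same code deviated together from their group means. Markers of cortical excitatory neurons, the cells that define the labelled tissue, were present in every library, with a summed level over 8 genes of 721 to 821 FPKM in WT and 713 to 837 FPKM in KO. Several libraries stood apart in markers of neighbouring tissue. The 10 striatal neuron markers summed to 262 to 306 FPKM in WT and 299 in KO1011 but 132 in KO1012 and 129 in KO1013. The 6 choroid plexus markers summed to 153 in WT1013 and 315 in KO1012, mostly the transthyretin gene *Ttr*, and to 5.05 to 7.53 FPKM in the other libraries. None of these markers was at 0 in any library.

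The 42 genes spanned almost the whole range of the table. *Dkk3* alone had 52.4 FPKM as its mean over the 6 libraries, which is 37.7% of the summed level of all 42 genes. Only 2 others reached a mean of 10 FPKM, the ligand gene *Wnt7b* at 11.8 and the receptor gene *Fzd3* at 11.7, and their libraries overlapped throughout. Another 20 genes lay between 1 and 10 FPKM, 13 between 0.1 and 1, and 6 under 0.1. Reads were found in every library for 37 of the 42. The libraries therefore held transcripts of all 6 classes, with *Dkk3* the most abundant gene. The plot of levels by library uses a log axis that spans all 42 genes, so small differences between genotypes cannot be judged from it.

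**Figure D1:**
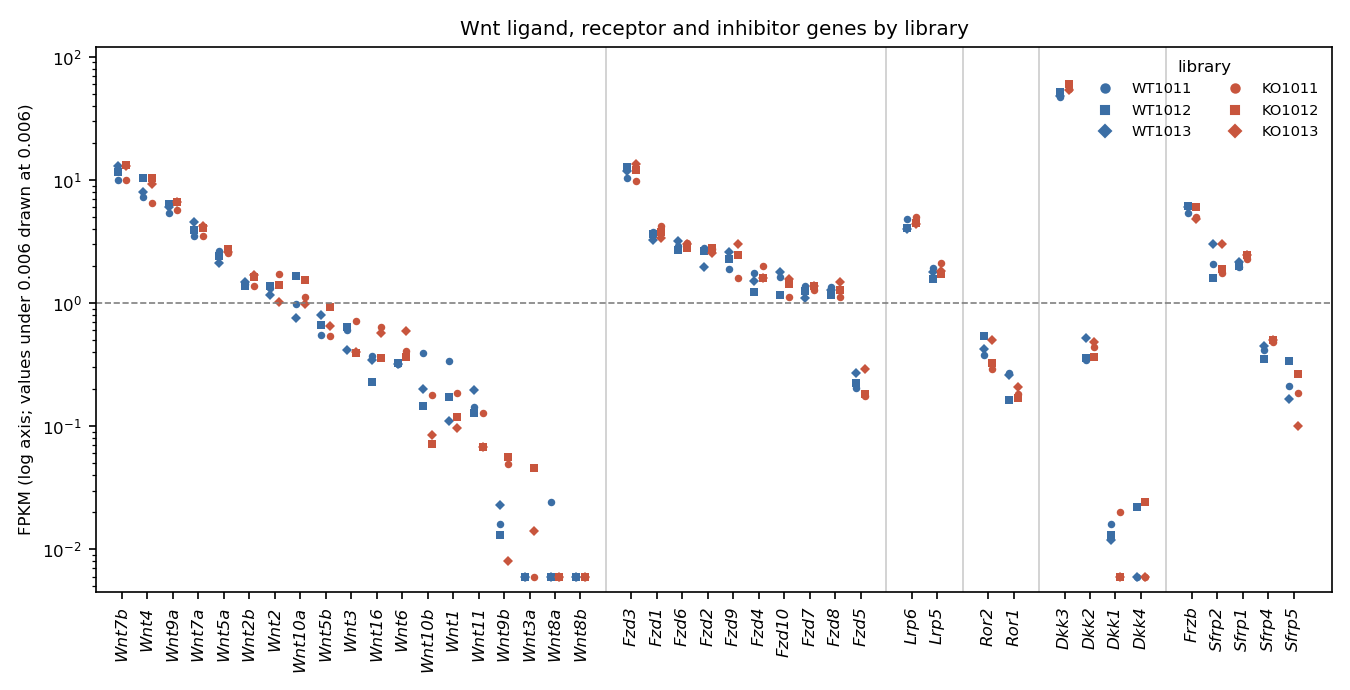
FPKM of each of the 42 genes in each library on a log axis, grouped by role and ordered by mean level; blue is WT, red is KO, and the marker shape gives the title code. The dashed line is 1 FPKM, the mean level needed for a test, and values under 0.006 FPKM are drawn at 0.006; the 3 genes with means above 10 FPKM are *Dkk3*, *Wnt7b* and *Fzd3*.

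None of the Wnt genes passed the test for a difference between KO and WT. Of the 42 genes, 23 had a mean of 1 FPKM or more and were tested, and the other 19 were too low. In limma on log2(FPKM + 1), 0 of the 23 had an adjusted p under 0.05, where 0.00777% of all 12863 tested genes did, which is *Chrdl1* alone. With the title code as a block, 0 of 23 were called against the same 0.00777% of all genes. At an unadjusted p under 0.05, limma gave 1 of 23 (*Dkk3*) beside 0.63% of all genes, and with the block 2 of 23 (*Dkk3* and *Sfrp1*) beside 3.91%. Every one of the 23 fitted changes had a 95% interval within 1.5-fold of no change on this scale. The interval end farthest from no change was 0.46 on the log2 scale (*Wnt10a*). The scale understates changes in genes near 1 FPKM.

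The direction of the fitted changes was mostly upward in KO, though small. Of the 23 genes, 19 had higher and 4 lower fitted values in KO, while 53.8% of all tested genes were higher. The median log2 difference was 0.06 for the 23 genes and 0.01 for all genes, and the range was -0.13 (*Frzb*) to 0.18 (*Dkk3*). Within codes the median of the 23 was 0.00 in 1011, 0.09 in 1012 and 0.12 in 1013, so the upward lean was absent from 1 of the 3 pairs of libraries. When 1 library was left out, between 4 and 9 of the 23 were lower in KO, and without WT1013 and KO1012, the libraries with high choroid plexus markers, 6 were lower.

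KO exceeded WT in all 3 codes for 8 of the 23 genes, where 12.3% of all tested genes did so. These were *Wnt7b*, *Wnt9a*, *Fzd1*, *Fzd4*, *Lrp5*, *Lrp6*, *Dkk3* and *Sfrp1*. KO was below WT in all 3 codes for 1 of 23 (*Frzb*), beside 9.59% of all genes. The KO and WT libraries did not overlap for 2 of the 23, *Dkk3* and *Sfrp1*, both higher in KO, where 1.76% of all tested genes showed that pattern. For 0 of 23 were all KO libraries below all WT libraries, against 1.19% of all genes.

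**Figure D2:**
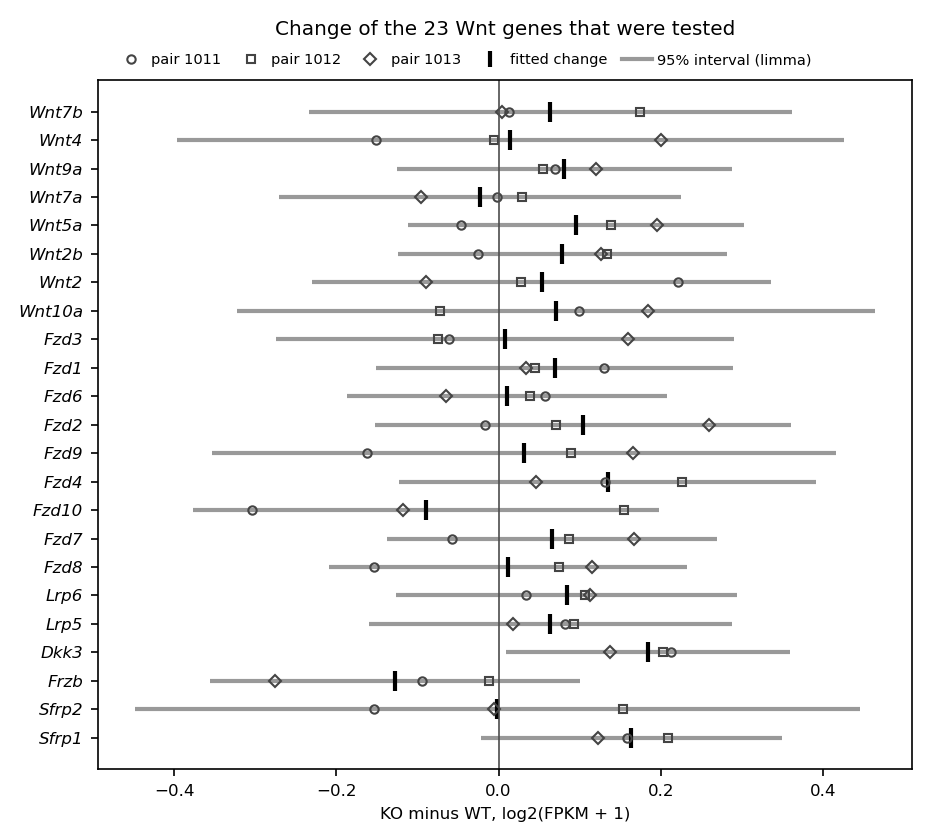
Difference between KO and WT in log2(FPKM + 1) for the 23 tested genes, ordered by role; open symbols are the 3 pairs of libraries that share a title code, the black tick is the fitted change and the grey bar its 95% interval from limma. Most ticks lie between 0.00 and 0.18, and only the bar of *Dkk3* lies wholly to the right of 0.

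Testing the reads recovered from the table with voom in limma brought in lower genes and still gave no call. Here 36 of the 42 genes could be tested, and 0 had an adjusted p under 0.05, beside 0.00648% of 15443 genes, or 0.013% with the block. At an unadjusted p under 0.05 there were 3 of 36 (*Dkk3*, *Sfrp1* and *Wnt11*) beside 1.04% of all genes. With the block there were 5 of 36 beside 4.41%, namely *Dkk3*, *Sfrp1*, *Wnt16*, *Wnt10b* and *Wnt11*. The lowest adjusted p among the 36 was 0.711 (*Dkk3*, voom in limma with the block).

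Among the ligands, *Wnt7b*, *Wnt4* and *Wnt9a* made up most of the Wnt transcript, with 29.9%, 21.7% and 15.5% of the summed FPKM of the 19 genes. *Wnt7b*, whose protein is known for guiding vessels into the brain, measured 9.96, 11.7 and 12.9 FPKM in WT1011, WT1012 and WT1013 and 10.1, 13.3 and 13.0 FPKM in KO1011, KO1012 and KO1013. The libraries coded 1011 were the lowest of each genotype, and the groups overlapped. The fitted log2 difference was 0.06 (95% interval -0.23 to 0.36).

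*Wnt4*, known for its part in kidney and gonad formation, measured 7.28, 10.4 and 7.90 FPKM in the WT libraries in the same order of codes, and 6.46, 10.4 and 9.23 FPKM in KO. Both libraries coded 1012 were high, and KO was lower than WT in 1011 and higher in 1013. Its fitted difference was 0.01 (interval -0.40 to 0.43). *Wnt9a*, a gene known from joint development, measured 5.43, 6.33 and 6.01 FPKM in WT and 5.75, 6.62 and 6.62 FPKM in KO. It was slightly higher in KO within each code although the groups overlapped, with a fitted difference of 0.08 (interval -0.12 to 0.29).

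The other tested ligands lay between 1.18 FPKM (*Wnt10a*) and 3.97 FPKM (*Wnt7a*) as means over the 6 libraries. *Wnt7a*, a ligand with a known part in presynaptic assembly, averaged 4.01 ± 0.547 FPKM in WT against 3.93 ± 0.384 in KO (SD, n = 3), and was the only tested ligand with a fitted value below 0 (-0.02). *Wnt5a*, the typical ligand of signalling without beta-catenin, was 2.4 ± 0.256 and 2.63 ± 0.126 FPKM, *Wnt2b* 1.43 ± 0.0455 and 1.57 ± 0.162, and *Wnt2* 1.28 ± 0.113 and 1.38 ± 0.347. Over all 19 ligands the summed level was 38.7 ± 3.14 FPKM in WT and 40.4 ± 4.52 FPKM in KO, a difference smaller than the spread between libraries.

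Of the 11 ligands under 1 FPKM, 7 lay between 0.1 and 1 FPKM. KO was above WT in all 3 codes for 2 of these 7, where 12.5% of the 3430 genes of that level were, and below WT in all 3 codes for 3 of 7, beside 12.2%. The 5 genes were singled out after their values were seen. *Wnt16*, best known from bone, measured 0.373, 0.230 and 0.347 FPKM in WT and 0.638, 0.358 and 0.571 in KO, from 13 to 22 and 19 to 25 reads. Each KO library was above the WT library of its code, but KO1012 lay below WT1011, so the groups overlapped. *Wnt6* measured 0.318, 0.328 and 0.317 FPKM in WT and 0.407, 0.364 and 0.588 in KO, with no overlap. How often genes of that level show no overlap was not counted. Adjusted over all genes, neither passed (voom in limma with the block, adjusted p of 0.992 for *Wnt16* and 0.998 for *Wnt6*).

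The other ligands of this kind were lower in KO. *Wnt10b*, known as a brake on fat cell formation, measured 0.394, 0.146 and 0.200 FPKM in WT and 0.179, 0.0710 and 0.0850 in KO, with 24, 11 and 17 reads against 9, 5 and 5. *Wnt1*, which patterns the midbrain in the embryo, measured 0.339, 0.174 and 0.111 FPKM in WT and 0.187, 0.119 and 0.0960 in KO, from 22, 14 and 10 reads against 10, 9 and 6. Both genes were highest in the libraries coded 1011, in KO as in WT, so the groups overlapped although KO was lower within each code. *Wnt11* measured 0.144, 0.127 and 0.198 FPKM in WT and 0.127, 0.0680 and 0.0680 in KO. On recovered reads the fitted log2 difference was -1.08 for *Wnt10b* and -0.83 for *Wnt11*, with adjusted p of 0.845 and 0.998 (voom in limma with the block). In the reference annotation 8.80% of the exon length of *Wnt11* overlaps a gene on the opposite strand, *Gm8398*. Opposite-strand genes also overlap 6.6% of the exon length of *Wnt7b* (*AU022754*) and 4.6% of that of *Wnt5a* (*Gm2670*). The sources do not say if reads were counted by strand.

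Transcripts of several embryonic Wnts were at or near the limit of detection. *Wnt8b*, a marker of the embryonic cortical hem, had 0 reads in all 6 libraries, an upper limit of 0.0233 FPKM for WT1013, the deepest, and 0.0393 FPKM for KO1011, the shallowest (3 counts, counting error only). *Wnt8a* had 1 read in WT1011 and 0 elsewhere. *Wnt3a*, the hem ligand needed for the hippocampus, had 0 reads in the 3 WT libraries and in KO1011, 4 reads in KO1012 and 1 in KO1013. *Wnt9b* had 2, 2 and 4 reads in the WT libraries and 5, 8 and 1 in the KO libraries. These 4 genes were too low to compare between genotypes at this depth.

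Several Wnt genes lie next to each other in the genome, and 4 such pairs had no other gene of the table between them. In mm10, *Wnt3a* (chr11:59248042-59290751, minus strand) and *Wnt9a* (chr11:59306930-59333552, plus strand) start 16.2 kb apart and head to head, yet their mean levels were 0.01 and 6.13 FPKM. *Wnt9b* and *Wnt3*, 24.4 kb apart on chromosome 11, were at 0.0275 and 0.528 FPKM, and *Wnt6* and *Wnt10a*, 6.7 kb apart on chromosome 1 and on the same strand, at 0.387 and 1.18. *Wnt10b* (chr15:98771752-98778150, minus strand) and *Wnt1* (chr15:98789857-98793830, plus strand), head to head and 11.7 kb apart, had nearly the same level, 0.179 and 0.171 FPKM. Neighbours thus differed most in level at *Wnt3a* and *Wnt9a* and least at *Wnt10b* and *Wnt1*, whose values also ran lower in KO within each code. The promoters of both pairs are shown for that contrast, from RefSeq on GRCm38.p6, each with 250 bases before and 50 after the start in the direction of the gene. Capitals mark GGCGCC, the GC-rich Smad element of bone morphogenetic protein targets.
Wnt3a promoter, chr11:59290702-59291001, minus strand: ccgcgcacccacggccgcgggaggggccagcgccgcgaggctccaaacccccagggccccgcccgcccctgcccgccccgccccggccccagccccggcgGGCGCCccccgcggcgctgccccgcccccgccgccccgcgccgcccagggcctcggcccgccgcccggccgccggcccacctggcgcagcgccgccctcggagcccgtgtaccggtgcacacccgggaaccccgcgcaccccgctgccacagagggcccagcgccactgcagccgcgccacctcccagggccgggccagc
Wnt9a promoter, chr11:59306680-59306979, plus strand: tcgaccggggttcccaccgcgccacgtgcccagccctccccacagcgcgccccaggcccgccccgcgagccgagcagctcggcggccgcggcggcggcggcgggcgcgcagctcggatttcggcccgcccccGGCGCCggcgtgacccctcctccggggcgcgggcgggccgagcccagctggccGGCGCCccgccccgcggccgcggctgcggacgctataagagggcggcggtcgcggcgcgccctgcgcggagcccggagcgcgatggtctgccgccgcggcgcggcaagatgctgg
Wnt10b promoter, chr15:98778101-98778400, minus strand: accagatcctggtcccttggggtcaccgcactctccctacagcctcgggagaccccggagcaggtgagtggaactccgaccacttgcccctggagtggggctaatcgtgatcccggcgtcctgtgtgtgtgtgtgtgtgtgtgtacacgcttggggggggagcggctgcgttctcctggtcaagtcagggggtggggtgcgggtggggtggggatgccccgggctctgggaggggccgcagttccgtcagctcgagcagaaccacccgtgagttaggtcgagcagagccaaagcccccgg
Wnt1 promoter, chr15:98789607-98789906, plus strand: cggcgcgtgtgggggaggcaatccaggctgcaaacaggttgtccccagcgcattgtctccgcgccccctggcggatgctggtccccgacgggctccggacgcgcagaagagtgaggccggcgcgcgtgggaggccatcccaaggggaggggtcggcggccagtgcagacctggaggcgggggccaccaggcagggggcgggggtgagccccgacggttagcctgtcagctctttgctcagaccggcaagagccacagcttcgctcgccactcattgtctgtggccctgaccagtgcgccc

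Of the promoters printed, those of *Wnt3a* and *Wnt9a* were more GC-rich, at 86.3% and 83.3% G and C, against 66.3% for *Wnt10b* and 70.7% for *Wnt1*. GGCGCC was found 1 time in the *Wnt3a* promoter, 2 times in that of *Wnt9a*, and not in those of *Wnt10b* and *Wnt1*. *Wnt9b* and *Wnt3* also differed in level, at 0.0275 and 0.528 FPKM. Their promoters had 71.7% and 65.7% G and C and no GGCGCC, so neither feature went with unequal levels at every pair. Of the 42 genes, 28 matched the table of promoters, with 31 promoters, and 11 of these 31 (35.5%) held GGCGCC on either strand, against 11.9% of 32851 promoters of the same length. CTTTGA, the core of the TCF/LEF element, was found in 6 of the 31 and in 16.0% of all, and in none of the promoters printed above. GGCGCC reads the same on both strands and is made of G and C alone, so it is found more often where a promoter is GC-rich. A match describes letters in a window and not a bound site.

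Among the receptors, *Fzd3* made up 40.2% of the summed Frizzled level. *Fzd3*, known for its part in the growth of axon tracts, measured 10.3, 12.7 and 11.9 FPKM in WT1011, WT1012 and WT1013 and 9.84, 12.0 and 13.4 FPKM in KO1011, KO1012 and KO1013. The libraries coded 1011 were again the lowest of each genotype, and the fitted log2 difference was 0.01 (interval -0.27 to 0.29). *Fzd1* measured 3.77, 3.66 and 3.28 FPKM in WT and 4.22, 3.81 and 3.38 in KO, higher in KO within each code but overlapping, with a difference of 0.07 (interval -0.15 to 0.29). *Fzd6*, known for the patterning of hair, measured 2.89, 2.70 and 3.20 FPKM in WT and 3.05, 2.80 and 3.02 in KO, within the WT range throughout (0.01, interval -0.19 to 0.21). Its exons overlap an opposite-strand gene, *Gm26704*, over 3.16% of their length.

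The remaining Frizzled genes were lower in level and also overlapped between genotypes. *Fzd4*, the receptor for the vessel ligand norrin, had the largest fitted difference of the family, 0.13 (interval -0.12 to 0.39), from 1.5 ± 0.257 FPKM in WT to 1.74 ± 0.232 in KO (SD, n = 3). *Fzd10* was the only tested receptor with a lower fitted value in KO (-0.09), and its 3 codes disagreed, at -0.30, 0.15 and -0.12. *Fzd2*, *Fzd9*, *Fzd7* and *Fzd8* had fitted differences of 0.10, 0.03, 0.07 and 0.01. *Fzd5*, known from eye development, was 0.232 ± 0.0336 FPKM in WT and 0.216 ± 0.0640 in KO, and 17.8% of its exon length overlaps *Gm38058* on the opposite strand. Summed over the 10 genes, Frizzled transcript was 28.6 ± 0.560 FPKM in WT and 29.5 ± 2.25 in KO.

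The co-receptor genes *Lrp6* and *Lrp5* were higher in KO within every code, but by less than the libraries differed among themselves. *Lrp6* measured 4.81, 4.09 and 4.01 FPKM in WT and 4.95, 4.48 and 4.42 in KO, and *Lrp5* 1.94, 1.55 and 1.80 in WT and 2.11, 1.72 and 1.83 in KO. The libraries coded 1011 were the highest of each genotype for both genes, the reverse of the order seen in *Wnt7b* and *Fzd3*. The fitted differences were 0.08 (interval -0.13 to 0.29) and 0.06 (interval -0.16 to 0.29). *Ror2* and *Ror1*, receptors for Wnt5a, were too low for the main test. *Ror2* measured 0.377, 0.542 and 0.423 FPKM in WT and 0.290, 0.324 and 0.498 in KO, and *Ror1* 0.270, 0.162 and 0.262 in WT and 0.183, 0.168 and 0.209 in KO. Both overlapped between genotypes and were lower in KO in 2 of 3 codes.

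*Dkk3* had the largest fitted difference of the 23 tested genes and was the most abundant of all 42. It encodes a divergent member of the Dickkopf family, which unlike Dkk1 is not known as a typical blocker of Lrp5 and Lrp6. The gene (NM_015814) lies on the minus strand at chr7:112116019-112159057 with 3347 bp of exon in the authors' model, and no other annotated gene overlaps its exons. It measured 47.0, 51.6 and 48.3 FPKM in WT1011, WT1012 and WT1013 and 54.6, 59.5 and 53.2 FPKM in KO1011, KO1012 and KO1013. Every KO library was above every WT library, and the narrowest gap lay between WT1012 and KO1013. The means were 48.9 ± 2.38 and 55.8 ± 3.34 FPKM (SD, n = 3), a ratio of 1.14. Within codes the log2 difference was 0.21, 0.20 and 0.14, and the fitted value was 0.18 (SE 0.0755, interval 0.01 to 0.36). Adjusted over all genes *Dkk3* was not called, with a limma unadjusted p of 0.0414 and an adjusted p of 0.9999. With the block the unadjusted value was 0.00226 and the adjusted p was 0.999 in limma, so the gene passed neither test.

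The other Dickkopf genes were scarce. *Dkk2* measured 0.344, 0.357 and 0.517 FPKM in WT and 0.442, 0.364 and 0.482 in KO, with full overlap. *Dkk1*, the classical Lrp5 and Lrp6 blocker, had 1 read in each WT library and 1, 0 and 0 reads in KO, where 3 counts would be 0.0352 FPKM for WT1013 and 0.0594 for KO1011. *Dkk4* had 1 read in WT1012, 1 in KO1012 and 0 elsewhere. *Dkk3* therefore made up 99.2% of all Dickkopf transcript, and the family's summed level, 49.4 ± 2.38 FPKM in WT and 56.2 ± 3.29 in KO, was in effect the level of that gene. Over the 42 genes the summed level was 134 ± 5.66 FPKM in WT and 144 ± 8.47 in KO, and most of that difference lay in *Dkk3*. The summed levels overlapped between genotypes.

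Of the secreted Frizzled-related group, *Frzb* was the most abundant and *Sfrp1* the most distinct between genotypes. *Sfrp1* (NM_013834, chr8:23411502-23449632, plus strand, 4367 bp of exon), a well-studied scavenger of Wnts, measured 1.94, 2.0 and 2.16 FPKM in WT and 2.29, 2.47 and 2.44 FPKM in KO. All KO libraries were above all WT libraries, and the gap between the highest WT and the lowest KO library was small. The means were 2.03 ± 0.112 and 2.4 ± 0.0980 FPKM (SD, n = 3), and the log2 difference was 0.16, 0.21 and 0.12 within codes. The fitted value was 0.16 (SE 0.0800, interval -0.02 to 0.35) with a limma adjusted p of 0.9999, or 0.999 with the block, where the interval was 0.01 to 0.32. In the promoter table neither *Dkk3* nor *Sfrp1* had an entry.

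*Frzb*, another scavenger and 52.2% of the group's summed level, leaned the other way. It measured 5.43, 6.12 and 6.04 FPKM in WT and 5.02, 6.07 and 4.82 FPKM in KO. KO was lower within each code, by 0.09, 0.01 and 0.28 on the log2 scale, but KO1012 lay inside the WT range. The fitted difference was -0.13 (interval -0.36 to 0.10). *Sfrp2* measured 2.08, 1.60 and 3.02 FPKM in WT and 1.77, 1.90 and 3.0 in KO, high in both libraries coded 1013, with a fitted difference of -0.00 and an interval of -0.45 to 0.45. An opposite-strand gene, *Gm26771*, covers 16.1% of its exons. *Sfrp4*, named after its values were seen, measured 0.416, 0.353 and 0.449 FPKM in WT and 0.479, 0.501 and 0.498 in KO without overlap, from 19 to 30 reads a library. The share of genes at so low a level without overlap was not counted. *Sfrp5* was 0.239 ± 0.0909 FPKM in WT and 0.183 ± 0.0820 in KO, lower in KO within each code. As a group the 5 genes summed to 10.8 ± 0.929 FPKM in WT and 10.6 ± 0.762 in KO.

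**Figure D3:**
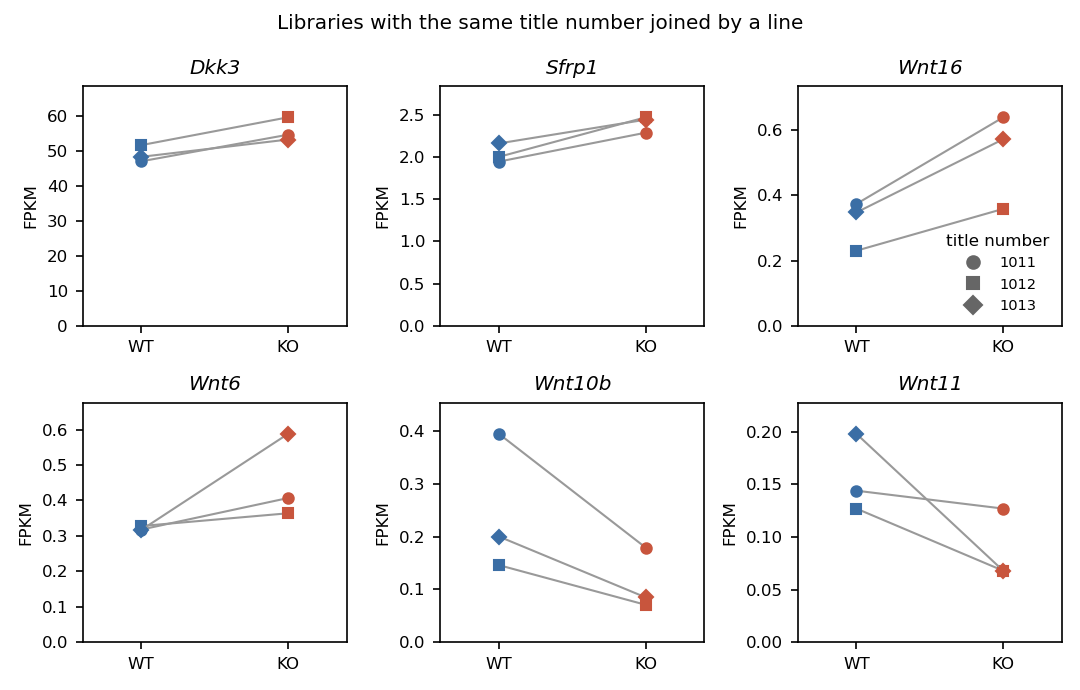
FPKM of 6 genes in each library from 0 upward, with libraries of the same title code joined by a line. *Dkk3*, *Sfrp1*, *Wnt16* and *Wnt6* were higher and *Wnt10b* and *Wnt11* lower in KO in all 3 codes; the choice of these 6 was made with their values known, and none passed the adjusted test.

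Most of the spread of these genes lay between the title codes and not between the genotypes. The share of the sum of squares of log2(FPKM + 1) that went with the code had a median of 74.8% over the 23 genes, beside 77.3% over all tested genes, and genotype had 13.1% beside 3.67%. The code had the largest share in 18 of 23 genes (78.3%), beside 80.3% of all genes. There are more codes than genotypes, so the code would take the larger share on average even without an effect of either. It reached 93.6% for *Sfrp2*, 93.4% for *Wnt7a*, 90.8% for *Wnt10a* and 90.1% for *Wnt4*. *Wnt10a* showed this in its levels, with 1.67 and 1.54 FPKM in WT1012 and KO1012 and 0.750 to 1.13 FPKM in the other 4 libraries. Genotype had the largest share in 2 genes (8.70%), *Dkk3* at 68.6% and *Sfrp1* at 81.6%, beside 5.10% of all genes.

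**Figure D4:**
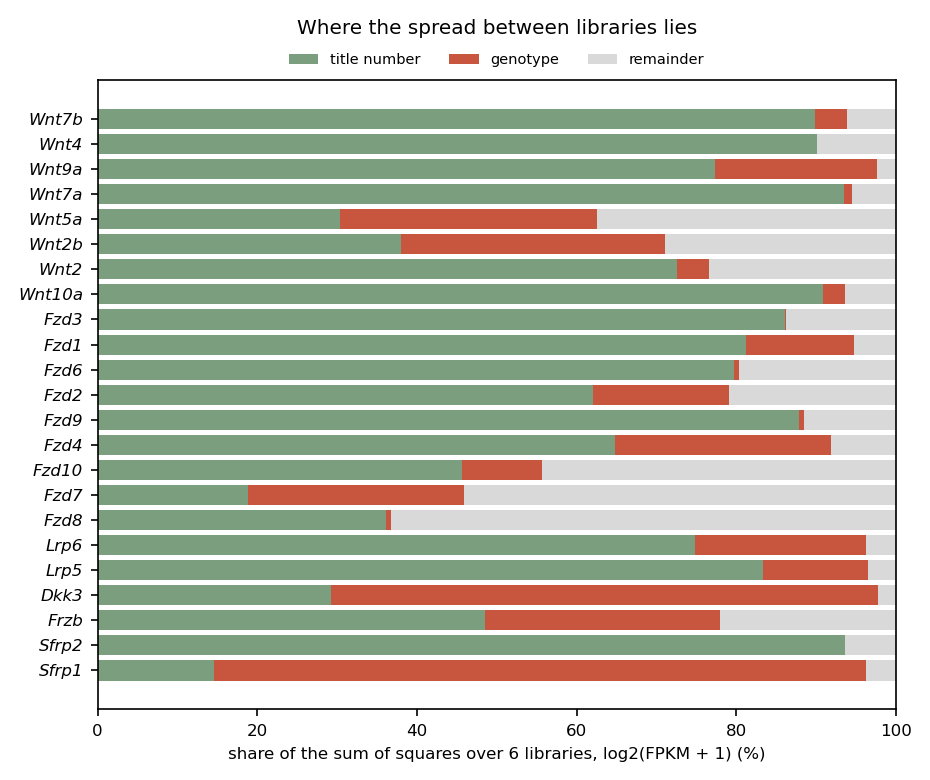
Share of the sum of squares of log2(FPKM + 1) over the 6 libraries that went with the title code (green), the genotype (red) and the remainder (grey), in percent, for the 23 tested genes. The red part is longest for *Sfrp1* (81.6%) and *Dkk3* (68.6%), and the green part exceeds 90% for *Sfrp2*, *Wnt7a*, *Wnt10a* and *Wnt4*.

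Markers of other cells and regions differed between libraries beside these results, and none of them had a limma adjusted p under 0.05. None of the listed genes was at 0 in any library. The values by code are given in the order 1011, 1012 and 1013, as medians of the log2 difference between KO and WT. Of 9 tested meningeal fibroblast markers, 8 had higher fitted values in KO (0.04, 0.25 and 0.38), and the 10 listed genes summed to 86.2 to 92.6 FPKM in WT and 93.0 to 117 FPKM in KO. All 10 endothelial markers were higher (0.08, 0.13 and 0.09), with sums of 102 to 122 FPKM in WT and 111 to 120 in KO. Of 9 pericyte and smooth muscle markers, 7 were higher (0.01, 0.13 and 0.14), with sums of 97.7 to 99.8 FPKM in WT and 99.4 to 108 in KO. Of 8 astrocyte markers, 6 were higher (0.12, 0.10 and -0.10), with sums of 800 to 838 FPKM in WT and 767 to 879 in KO.

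Other lists differed in direction between codes. All 10 striatal markers had lower fitted values in KO, but the median was 0.02 in code 1011 against -0.92 and -1.17 in the other codes. The 8 mature oligodendrocyte markers were lower in the fit and higher in code 1011 (0.18, -0.45 and -0.28), with sums of 1715 to 2830 FPKM in WT and 1344 to 2607 in KO. The 6 tested hippocampal markers were higher in the fit and mostly lower in code 1013 (0.16, 0.50 and -0.15), with sums over 7 genes of 53.5 to 67.6 FPKM in WT and 58.8 to 73.1 in KO. Of 4 tested markers of retrosplenial and medial cortex, 2 were higher and 2 lower (0.15, -0.01 and 0.20), with sums over 5 genes of 48.1 to 51.1 FPKM in WT and 52.2 to 59.6 in KO. Their member *Tshz2* was higher in KO in all 3 codes, by 0.53, 0.68 and 0.39, without overlap. In the same order of codes the difference was 0.21, 0.20 and 0.14 for *Dkk3* and 0.16, 0.21 and 0.12 for *Sfrp1*. Without WT1013 and KO1012 the fitted difference was 0.13 for *Dkk3* and 0.18 for *Sfrp1*. The part of these cells and regions in the Wnt differences was not tested, and in whole cortex fewer cells of a type and less RNA per cell cannot be told apart.

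The rest of the Wnt pathway gave no call either, in 6 lists of which 0 genes had a limma adjusted p under 0.05, with or without the block. Together the lists held 63 tested genes. At an unadjusted p under 0.05 limma gave 0 of the 63 without the block and 2 with it, *Rspo2* and *Nkd1*, a share no larger than the 3.91% of all genes. Of 5 genes for Wnt release and maturation, 2 were higher and 3 lower in KO (median -0.06). They included *Porcn*, which attaches the lipid that Wnts need (-0.08), *Tmed5* (-0.09), *Trabd2b* (0.08), and *Notum*, which removes that lipid (0.14). *Notum* measured 1.67, 1.41 and 1.68 FPKM in WT and 1.87, 1.83 and 1.85 in KO, without overlap. Of the R-spondins, their receptors and the ligases that remove Frizzled, 5 of 9 were tested, with 4 higher and 1 lower (median 0.06).

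*Rspo2*, an amplifier of Wnt signalling, measured 5.89, 6.19 and 6.18 FPKM in WT and 6.19, 7.34 and 7.09 in KO, a fitted difference of 0.15. The lowest KO and the highest WT library nearly coincided. *Rspo3*, *Rspo1* and the receptor gene *Lgr4* stood at 0.11, 0.06 and -0.01. Among 11 tested of 14 other receptors and polarity genes, 3 were higher and 8 lower (median -0.01), with *Adgra2*, the partner of Wnt7 signalling in vessels, at 0.15, *Celsr2* at 0.08, *Tspan12* at -0.08 and *Celsr3* at -0.14. Of 12 other inhibitors 6 were tested, with 4 higher and 2 lower (median 0.02). Here *Tpbg* stood at -0.14, *Dkkl1* at -0.13, *Wif1* at 0.08 and *Kremen1*, a receptor for Dickkopf proteins, at 0.03.

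Inside the cell, 17 of 28 genes of beta-catenin signalling were higher and 11 lower in KO, with a median of 0.02. *Apc2* (0.11), *Tle4* (0.07), *Tcf7l1* (0.08) and *Csnk1e* (0.06) had the lowest unadjusted p. Of 16 genes known as Wnt targets, 13 were tested, with 7 higher and 6 lower and a median of 0.01. *Nkd1*, a feedback inhibitor, measured 4.69, 4.69 and 4.27 FPKM in WT and 5.46, 4.87 and 5.14 in KO, all KO libraries above all WT libraries, with a difference of 0.15. *Nkd2* stood at 0.10, *Notum* at 0.14 and the cell cycle gene *Ccnd1* at -0.06. *Axin2*, the usual readout of beta-catenin signalling and named here for that reason, averaged 5.76 ± 0.775 FPKM in WT against 5.73 ± 0.899 in KO (SD, n = 3), a difference of -0.01. The target list thus held about as many lower as higher genes.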

How the data were processed

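RNA-seq libraries from 3 *Chrdl1* KO and 3 WT visual cortices were used. The authors deposited FPKM values for 24453 genes on mm10, made from reads over exons with 1 row for each gene, per the file headers. The submitters' processing notes list HOMER 4.8.3, FastQC and STAR 2.4.0k. Of 12 libraries in the header command, 6 have columns; the remaining libraries were not used here. No strand option is named, so overlapping genes are uncertain. FPKM gives relative levels only.

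FPKM values rose in steps of 1 read, from which reads and depth were recovered. Of 4888 to 7140 values checked per library, 100% were whole within 0.1 read. KO and WT were compared with limma 3.58.1 (R 4.3.3), 2-sided, on log2(FPKM + 1) with an intensity trend, for 12863 genes whose mean reached 1 FPKM, with Benjamini-Hochberg adjustment over all of them at 0.05. Voom on recovered reads took 15443 genes with at least 10 reads in at least 3 libraries. Differences are KO minus WT.

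Same-code libraries correlated in their deviations, at 0.71, 0.67 and 0.43 for 1011, 1012 and 1013, and other pairings at -0.61 to -0.06. Deviations from a group mean cancel out within each genotype, so the negative values follow in part from the positive ones. The code was taken as pairing the libraries, though the labels do not say what it stands for, and a block for it was an alternative. Named genes are the 3 most abundant of each role, those with an unadjusted p under 0.05 in either fit, tested genes without overlap, and up to 4 of each pathway list with the smallest unadjusted p. The Wnt genes, the lists and this rule were chosen with earlier results of these data known. Exon overlaps came from GENCODE on GRCm38. Python 3.11.15, numpy 2.4.6, pandas 2.3.3 and matplotlib 3.10.9 were also used.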

Additional observations from a re-analysis of the deposited data

How the results depend on the processing

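The count of Wnt genes called was 0 under every alternative run, with 0 to 5 at an unadjusted p under 0.05 in limma, and the replicate block left it at 0. The count of all genes called was 1 in the main fit and with the replicate block, 2 with a pseudocount of 0.1, 6 with no filter on low values, 12 with a filter at 0.1 FPKM and a pseudocount of 0.1, and 2 by voom with the block. Leaving out 1 library gave 1 to 4 genes (4 without KO1011, 2 without WT1011). Without WT1013 and KO1012, an alternative chosen after seeing the data, it was 0 in limma with 43 genes at an unadjusted p under 0.05. Fewer libraries were fitted there. The cause of the other shifts was not tested.

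With 1 library left out, the median change of the tested Wnt genes ranged from 0.04 to 0.10, that of *Dkk3* from 0.14 to 0.22 and that of *Sfrp1* from 0.14 to 0.19. Of all 23 tested Wnt genes, 2 to 6 changed sign, none with a call. Among those with values by library, the sign turned for *Fzd3* (-0.0838 to 0.12), *Wnt4* (-0.11 to 0.19), *Wnt7b* (-0.0286 to 0.18), *Fzd6* (-0.0321 to 0.0597) and *Sfrp2* (-0.17 to 0.17). Without WT1013 and KO1012, *Wnt4* stood at -0.15 and *Sfrp2* at 0.23, and by voom with the block *Sfrp2* stood at 0.0040. Genes with under about 30 reads a library, such as *Wnt10b* and *Wnt11*, are limited by depth.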
